A study of Saccharomyces cerevisiae with 36 samples.

Results

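The genes described here are those of autophagy and of vacuolar protein breakdown in the yeast Saccharomyces cerevisiae. They are every measured gene whose symbol begins with ATG and a digit, 33 in number, together with the vacuolar protease genes PEP4, PRB1, PRC1 and CPS1 and the lipid kinase genes VPS34, VPS15 and VPS30. They make 40 of the 5338 genes tested, and all 40 were called Present on all 36 arrays. ATG16, ATG42, ATG44 and ATG45 have symbols that fit but were not analysed here.

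In autophagy a double membrane closes around a portion of cytoplasm and fuses with the vacuole, where hydrolases break the contents down and permeases return amino acids to the cytosol. In yeast the TORC1 kinase holds the pathway off while nutrients last, and loss of nitrogen or amino acids releases the Atg1 kinase and its partners. A lipid kinase complex, Atg9 vesicles and a pair of ubiquitin-like systems then build the membrane, and receptors tie chosen cargo to Atg8 on it.

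Affymetrix yeast arrays were hybridised with RNA from 3 strains, 2 conditions and 3 kinds of RNA, which gives 18 groups of 2 arrays. The strains were a deletion of MSN5, a deletion of MTR10 (msn5 and mtr10 below) and the wild-type BY4742, a laboratory strain of mating type alpha that cannot make histidine, leucine, lysine or uracil. Msn5 and Mtr10 are carriers that move proteins, and in a way that also touches transfer RNA, across the nuclear envelope. Each culture was divided and held for 30 min in synthetic medium lacking amino acids (starved) or in the complete medium (fed). All groups received cycloheximide, which holds ribosomes on messages, before lysis. The lysates were run on sucrose gradients, which gave a polysome pool (messages carrying several ribosomes), a non-polysome pool, and, beside them, total RNA. The labels call the 2 arrays of a group biological replicates, and this number limits the precision of every value below.

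Levels are the deposited RMA values on a log2 scale, so a step of 1 is a doubling. RMA gives every array the same distribution of values, and each level is therefore relative to the other messages of that RNA sample. Differences are log2 differences ± the standard error from a limma fit over all 18 groups. A gene was called where its p-value was below 0.05 after Benjamini-Hochberg adjustment across all 5338 genes. In RNA from whole cultures, fewer cells using a gene and less RNA per cell cannot be told apart.

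The deleted genes were read on every array. MSN5 lay between 3.64 and 4.75 in 5 of the 6 msn5 groups and between 10.94 and 12.57 in the other strains, but at 6.85 and 7.23 in fed msn5 non-polysome RNA. MTR10 lay between 3.64 and 4.67 in 5 of the 6 mtr10 groups and between 9.99 and 11.09 in the other strains, but at 5.48 and 5.17 in fed mtr10 non-polysome RNA. In both mutants the fed non-polysome arrays thus stand apart, and results that rest on them are also given with total RNA in their place. The 7 genes that mark cells of mating type a (MFA1, MFA2, STE2, STE6, BAR1, AGA2 and ASG7) had mean levels of 11.87 to 12.10 on starved wild-type arrays, against 7.51 to 8.30 on fed ones, although BY4742 is of mating type alpha. The same mean lay at 10.25 to 10.81 in starved and 7.50 to 9.07 in fed msn5, and at 10.13 to 11.24 in starved and 9.73 to 10.62 in fed mtr10. The 4 markers of mating type alpha (STE3, MF(ALPHA)1, MF(ALPHA)2 and SAG1) had mean levels of 10.53 to 10.75 in starved and 11.96 to 12.19 in fed msn5, of 12.36 to 12.53 in starved and 12.95 to 13.04 in fed mtr10, and of 12.60 to 12.76 in starved and 12.94 to 13.07 in fed wild-type. Their part in the results below was not tested.

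The first question was how the genes answered amino acid starvation in wild-type total RNA. Most of them rose within 30 min. The strongest were ATG1, which encodes the kinase that starts autophagy, ATG41, whose product works with Atg9 on the growing membrane, and ATG39, the receptor that sends nuclear envelope and endoplasmic reticulum to the vacuole. Of the 40 genes, 30 were called higher and 1 lower, where 64.2% of all genes were called (31.4% higher and 32.8% lower). Their median difference was 0.64, against -0.03 over all genes, and 10 of them rose at least 2-fold. On the second set of deposited values, MAS5 signals, the median was 0.71 and the calls were 22 higher and 1 lower, with 1 starved and 1 fed array left in that fit. The MAS5 columns named for array 1 of starved and of fed wild-type total RNA matched RMA arrays of the opposite condition, so they were not used.

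**Figure D1:**
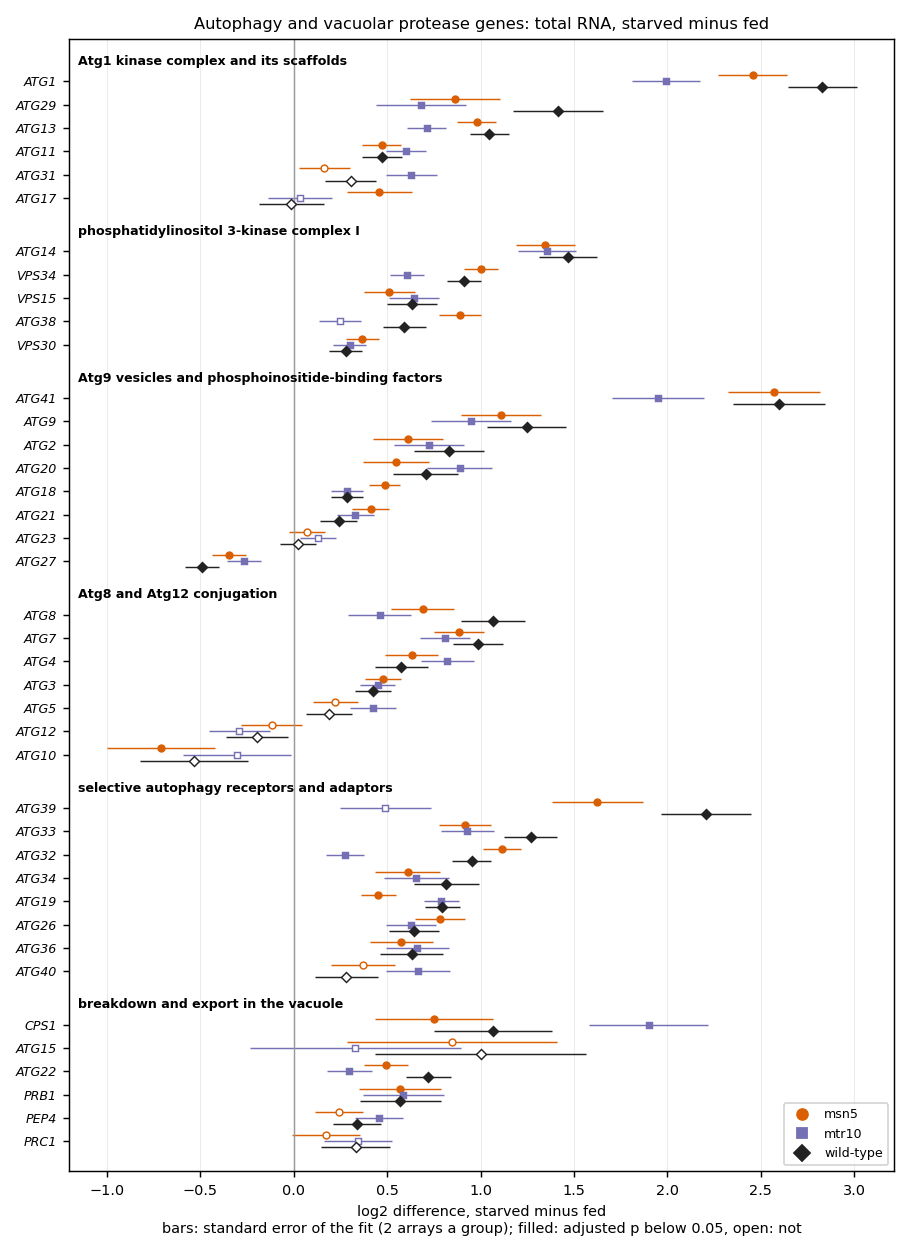
Differences in total RNA between starved and fed cells for the 40 genes, in rows grouped by role, with the log2 difference on the horizontal axis. Points show msn5, mtr10 and wild-type from top to bottom in each row with the standard error of the fit, filled where the gene was called. Most points lie to the right of 0 in all 3 strains, and ATG27, ATG10 and ATG12 lie to the left. The mtr10 points of ATG1, ATG39 and ATG32 lie to the left of those of the other strains.

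The Atg1 complex collects at the site where the membrane forms. ATG1 measured 11.91 and 11.49 on the starved wild-type arrays, against 8.87 and 8.87 on the fed ones. The groups lay far apart, and the difference was 2.83 ± 0.18 (7.11-fold, adjusted p = 2.65e-11). ATG13, whose protein TORC1 phosphorylates to hold the kinase off, measured 11.40 and 11.09 in starved cells and 10.24 and 10.16 in fed cells, a rise of 1.05 ± 0.10 (adjusted p = 1.94e-08). ATG29, a scaffold subunit, rose by 1.41 ± 0.24, with 8.50 and 8.04 in starved cells against 6.90 and 6.82 in fed cells. MAS5 signals gave 0.92 for it, and its locus overlaps that of SET6 in the RefSeq annotation, so its signal is less certain. ATG11, the scaffold for selective cargo, rose by 0.47 ± 0.11 on RMA values, while its MAS5 difference of 0.33 missed the threshold (adjusted p = 0.106). The other scaffold genes ATG31 (0.30 ± 0.14, adjusted p = 0.056) and ATG17 (-0.01 ± 0.17) were not called, so that 4 of the 6 genes of the complex rose and none was called lower.

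All 5 genes of the lipid kinase complex that marks the new membrane with phosphatidylinositol 3-phosphate rose. ATG14, which directs the complex to autophagy, measured 9.55 and 9.40 in starved and 8.13 and 7.88 in fed wild-type cells, a difference of 1.47 ± 0.16 (2.77-fold, adjusted p = 5.54e-08). VPS34, the catalytic subunit, measured 11.35 and 11.23 in starved and 10.38 and 10.37 in fed cells, a difference of 0.91 ± 0.09. Smaller rises were seen for the accessory subunit ATG38 (0.59 ± 0.11), for the regulatory subunit VPS15 (0.63 ± 0.13) and for VPS30 (0.28 ± 0.09), the subunit shared with the vacuolar sorting form of the complex. The last 2 missed the threshold on MAS5 signals, with adjusted p of 0.0568 for VPS15 and 0.0622 for VPS30, and VPS30 also without fed array 2 (adjusted p = 0.111).

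Of the 8 genes for Atg9 vesicles and for proteins that bind phosphoinositides, 6 were called higher and 1 lower. ATG41 measured 13.99 and 13.94 on the starved arrays, against 11.22 and 11.51 on the fed ones, which is 2.60 ± 0.25 (6.06-fold, adjusted p = 8.79e-09). ATG9, whose product carries lipid into the forming membrane and moves lipids between its leaflets, rose by 1.25 ± 0.21 (adjusted p = 2.67e-05), with arrays at 10.40 and 9.96 in starved and 8.90 and 8.97 in fed cells. ATG2, which encodes the lipid transfer protein between the endoplasmic reticulum and the new membrane, rose by 0.83 ± 0.19. ATG20, a sorting nexin gene, rose by 0.71 ± 0.18, and without starved array 1 the value was 0.44 (adjusted p = 0.0642). The genes of the phosphoinositide-binding propellers gave 0.29 ± 0.08 for ATG18 and 0.24 ± 0.10 for ATG21. Both missed the threshold on MAS5 signals, and ATG21 also when either fed array or starved array 1 was left out (adjusted p of 0.0743 to 0.203). ATG23, for a factor of Atg9 transport, did not pass (0.02 ± 0.10). ATG27, for a membrane protein that travels with Atg9, was the gene called lower, with 11.25 and 11.18 in starved and 11.72 and 11.69 in fed cells (-0.49 ± 0.09, adjusted p = 7.13e-05).

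Of the 7 genes of the ubiquitin-like systems, 4 were called higher and 0 lower. ATG8, whose product is joined to lipid on the membrane, measured 11.18 and 10.77 in starved wild-type cells, against 9.81 and 10.01 in fed cells (1.07 ± 0.17, 2.09-fold, adjusted p = 1.17e-05). ATG7, for the activating enzyme that serves both systems, rose by 0.98 ± 0.13 (10.57 and 10.51 starved, against 9.57 and 9.54 fed). ATG4, for the protease that trims Atg8, rose by 0.58 ± 0.14 and ATG3, for the enzyme that conjugates it, by 0.42 ± 0.10. On MAS5 signals ATG4 gave the larger value of 0.94. ATG5 (0.19 ± 0.12), ATG12 (-0.20 ± 0.16) and ATG10 (-0.53 ± 0.29, adjusted p = 0.109), for the target, the modifier and the conjugating enzyme of the other system, were not called.

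Among the genes grouped here as receptors and factors of selective autophagy 7 of 8 rose. ATG39 measured 9.05 and 8.83 in starved cells and 6.51 and 6.96 in fed cells, a difference of 2.21 ± 0.24 (4.62-fold, adjusted p = 7.89e-08). ATG33, which acts in the turnover of mitochondria, measured 12.01 and 11.93 in starved and 10.77 and 10.64 in fed cells (1.27 ± 0.14, adjusted p = 8.57e-08). ATG32, the mitochondrial receptor gene, measured 10.80 and 10.98 in starved and 9.92 and 9.96 in fed cells (0.95 ± 0.10, adjusted p = 5.73e-08). The starved and fed arrays of each of these genes did not overlap. The neighbouring and related genes ATG34 (0.82 ± 0.17) and ATG19 (0.80 ± 0.09), receptors of the route that delivers vacuolar hydrolases, rose to a similar degree, as did ATG26 (0.64 ± 0.13), a sterol glucosyltransferase gene, and ATG36 (0.63 ± 0.17), the peroxisome receptor gene. ATG40, the receptor gene for cortical endoplasmic reticulum, was not called (0.28 ± 0.17, adjusted p = 0.152).

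Of the 6 genes for breakdown and export in the vacuole, 4 were called higher and 0 lower. CPS1, a carboxypeptidase gene, measured 11.54 and 11.65 in starved and 10.46 and 10.61 in fed cells (1.07 ± 0.32, adjusted p = 0.00571), and missed the threshold on MAS5 signals with the same difference (1.07, adjusted p = 0.0684). ATG22, for a permease that exports amino acids, rose by 0.72 ± 0.12 (10.84 and 10.71 starved, 10.04 and 10.08 fed). PEP4, the protease that activates the other vacuolar proteases, gave 13.29 and 13.24 in starved and 12.84 and 13.01 in fed cells, a difference of 0.34 ± 0.13 (adjusted p = 0.0256) on RMA values that turned to -0.26 (adjusted p = 0.286) on MAS5 signals. Its call was lost without fed array 1 (adjusted p = 0.18) or either starved array (0.107 and 0.0564). PRB1, the major vacuolar serine protease gene, gave 12.43 and 12.35 in starved and 11.75 and 11.89 in fed cells (0.57 ± 0.22, adjusted p = 0.0264), and missed the threshold without any 1 of the 4 arrays (adjusted p of 0.0509 to 0.127) and on MAS5 signals (adjusted p = 0.453). The carboxypeptidase Y gene PRC1 (0.33 ± 0.18) and the lipase gene ATG15 (1.00 ± 0.56), whose product opens the inner membrane, were not called. In a fit on the wild-type total RNA groups alone PRC1, ATG15, ATG10, ATG31 and ATG40 were called as well (adjusted p of 0.0017 to 0.0439). ATG10 was lower there and the others were higher.

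Other genes of the vacuole and its control were read in the same comparison, in which 31.4% of all genes were called higher and 32.8% lower. Of 9 genes for other vacuolar hydrolases and trehalases, 8 were called higher, led by the alkaline phosphatase gene PHO8 (1.53 ± 0.08), the aminopeptidase gene DAP2 (1.08 ± 0.10) and the acid trehalase gene ATH1 (1.11 ± 0.14). Of 10 vacuolar amino acid transporters 7 were higher and 1 lower, with VBA2 at 1.87 ± 0.13, AVT6 at 1.40 ± 0.14 and AVT7 at 0.82 ± 0.12. The inhibitor of carboxypeptidase Y, TFS1, rose by 1.72 ± 0.25, and the inhibitor of protease B, PBI2, fell by 0.52. Of the 15 genes of the proton pump 2 were higher and 6 lower, with VMA2 at -0.44 ± 0.08, VMA4 at -0.46 ± 0.09 and VMA13 at 0.33 ± 0.07. Among 19 genes of vacuolar sorting and fusion 8 were higher and 5 lower, with YPT7 at -0.48 ± 0.08, VPS38 at 0.56 ± 0.11 and YKT6 at -0.54 ± 0.10. TORC1 and its regulators had 10 of 17 genes higher and 2 lower, the highest being NPR2 (1.05 ± 0.09), NPR1 (0.92 ± 0.14) and IML1 (0.82 ± 0.12) among those named by smallest p-value. Of 9 transcription regulators of autophagy genes 4 were higher and 1 lower, with the GATA factor genes GAT1 (2.14 ± 0.15) and GLN3 (1.66 ± 0.12) higher and the repressor gene UME6 lower (-0.52 ± 0.13).

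Both mutants answered starvation through most of the same genes. In msn5 total RNA 30 genes were called higher and 2 lower, where 61% of all genes were called (28.8% higher and 32.2% lower), and the median was 0.57. In mtr10 total RNA 31 were higher and 1 lower, where 48.7% of all genes were called (24.8% higher and 23.9% lower), and the median was 0.60. Over the 3 strains 27 of the 40 genes were called higher in every one and 1, ATG27, was called lower in every one, while 18.5% of all genes were called higher in every one.

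**Figure D2:**
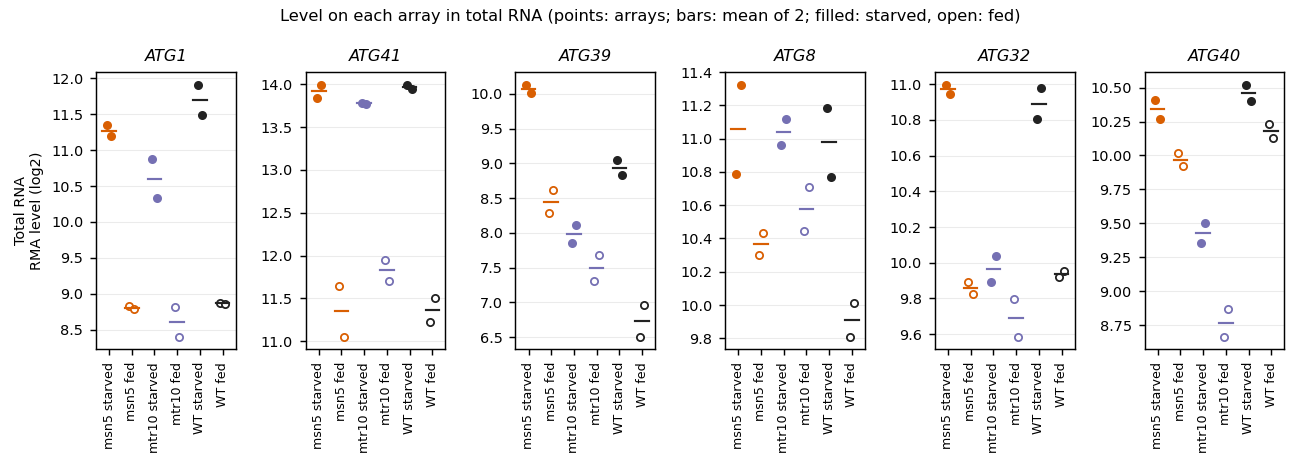
RMA levels (log2) of 6 genes on each array of total RNA, with msn5, mtr10 and wild-type from left to right and starved before fed in each. Points are arrays, filled for starved and open for fed, and bars are means of 2 arrays. ATG1 and ATG41 are high on all starved arrays, ATG39 in fed msn5 lies above both other fed strains, and ATG32 and ATG40 in starved mtr10 lie near or below the fed wild-type arrays.

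ATG1 measured 11.34 and 11.19 in starved against 8.83 and 8.79 in fed msn5, a rise of 2.46 ± 0.18 (adjusted p = 3.47e-10). In mtr10 it measured 10.87 and 10.34 in starved against 8.81 and 8.41 in fed cells, a rise of 1.99 ± 0.18 (adjusted p = 1.96e-08). Starved mtr10 lay below starved wild-type on every array. ATG41 rose by 2.57 ± 0.25 in msn5 (13.92 ± 0.11 starved, against 11.35 ± 0.42 fed, SD, n = 2 each) and by 1.95 ± 0.25 in mtr10 (13.78 and 13.77 starved, against 11.95 and 11.71 fed). ATG14 rose by 1.35 ± 0.16 in msn5 and by 1.36 ± 0.16 in mtr10. ATG8 rose by 0.69 ± 0.17 in msn5 (10.79 and 11.33 starved, 10.30 and 10.44 fed, adjusted p = 0.00145), a call lost without starved array 2 (adjusted p = 0.0663). In mtr10 it rose by 0.46 ± 0.17 (10.96 and 11.12 starved, 10.45 and 10.71 fed, adjusted p = 0.0289), a call lost without fed array 1 (adjusted p = 0.224) or starved array 2 (0.165).

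ATG9 and ATG33 belong to the larger changes in both mutants, ATG39 to those in msn5 and CPS1 to those in mtr10. ATG9 rose by 1.11 ± 0.21 in msn5 and 0.95 ± 0.21 in mtr10. ATG33 rose by 0.92 ± 0.14 in msn5 and 0.93 ± 0.14 in mtr10. ATG39 rose by 1.63 ± 0.24 in msn5 and was not called in mtr10 (0.49 ± 0.24). CPS1 rose by 1.90 ± 0.32 in mtr10, with 11.43 and 11.63 in starved against 9.49 and 9.78 in fed cells (adjusted p = 4.15e-05). In msn5 CPS1 rose by 0.75 ± 0.32 (adjusted p = 0.0452). ATG13, VPS34 and ATG32 rose by 0.98 ± 0.10, 1.00 ± 0.09 and 1.11 ± 0.10 in msn5. In mtr10 these genes rose by 0.71 ± 0.10, 0.60 ± 0.09 and 0.27 ± 0.10. ATG20 and ATG4 rose by 0.89 ± 0.18 and 0.82 ± 0.14 in mtr10, and by 0.55 ± 0.18 and 0.63 ± 0.14 in msn5. PEP4 gave 0.24 ± 0.13 in msn5, which was not called, and 0.46 ± 0.13 in mtr10, where the call was lost on MAS5 signals (0.03) and without fed array 1 or starved array 2 (adjusted p of 0.106 and 0.0637). PRB1 gave 0.57 ± 0.22 in msn5 and 0.59 ± 0.22 in mtr10, and both calls were lost on MAS5 signals and without any 1 of their arrays (adjusted p of 0.0592 to 0.149).

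The response itself was then compared between strains, as the starvation difference in a mutant minus that in wild-type. For msn5 limma called 0 of the 40 genes, with 1 (ATG19, -0.34 ± 0.13) at an unadjusted p below 0.05, where 0.693% of all genes were called (0.15% higher and 0.543% lower). ATG1 (-0.37 ± 0.26), ATG8 (-0.38 ± 0.24), PEP4 (-0.10 ± 0.18) and PRB1 (-0.00 ± 0.31) showed no called difference for msn5. For mtr10 3 genes were called, all with a smaller rise, where 14.3% of all genes were called (6.41% higher and 7.89% lower). ATG39 was one of them. It measured 7.86 and 8.11 in starved and 7.30 and 7.68 in fed mtr10, against 9.05 and 8.83 in starved and 6.51 and 6.96 in fed wild-type. Its rise of 0.49 ± 0.24 in mtr10 was not called, and the difference of responses was -1.72 ± 0.34 (adjusted p = 0.00171).

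ATG32 measured 9.89 and 10.04 in starved and 9.80 and 9.59 in fed mtr10, against 10.80 and 10.98 in starved and 9.92 and 9.96 in fed wild-type. The difference of responses was -0.68 ± 0.14 (adjusted p = 0.0029), and the starved mtr10 arrays lay close to the fed wild-type ones. ATG1 gave -0.84 ± 0.26 (adjusted p = 0.034), and that call was lost without either fed wild-type array, starved wild-type array 1, fed mtr10 array 1 or starved mtr10 array 2 (adjusted p of 0.0823 to 0.208, differences of -0.84 to -0.57), and in a fit on the compared groups alone (adjusted p = 0.0841). On MAS5 signals all 3 calls were lost, with -0.50 for ATG39 (adjusted p = 0.678), -0.68 for ATG32 (0.0971) and -0.64 for ATG1 (0.342), in a fit with 1 starved and 1 fed wild-type array. ATG8 (-0.61 ± 0.24, adjusted p = 0.0971), PEP4 (0.12 ± 0.18) and PRB1 (0.02 ± 0.31) were not called, though ATG8 was without starved wild-type array 2 (-0.81, adjusted p = 0.0403). All 7 markers of mating type a also had a smaller rise in mtr10 than in wild-type, by a median of -3.67, and their part in these results was not tested.

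Fed cells of the mutants were set against fed wild-type to see which genes differed before starvation. In fed msn5 total RNA 6 of the 40 genes were higher and 0 lower, where 11.9% of all genes were called (6.58% higher and 5.36% lower). ATG39 measured 8.29 and 8.61 in fed msn5, against 6.51 and 6.96 in fed wild-type. The difference was 1.72 ± 0.24 (3.29-fold, adjusted p = 4.25e-05) on RMA values, and 0.99 (adjusted p = 0.105) on MAS5 signals. ATG22 was higher by 0.55 ± 0.12 and ATG19 by 0.47 ± 0.09, with all arrays of msn5 above those of wild-type. ATG34 (0.64 ± 0.17) lost its call without any 1 of the 4 arrays (adjusted p of 0.0805 to 0.12), and ATG31 (0.52 ± 0.14) and ATG18 (0.31 ± 0.08) lost it without either wild-type array or msn5 array 1 (adjusted p of 0.0661 to 0.188). Without either wild-type array or msn5 array 1 the count was 3. ATG1 (-0.06 ± 0.18), ATG8 (0.46 ± 0.17, adjusted p = 0.0885), PEP4 (0.26 ± 0.13) and PRB1 (0.33 ± 0.22) were not called.

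In starved msn5 total RNA 5 genes were higher and 0 lower than in starved wild-type, where 20.2% of all genes were called (9.25% higher and 10.9% lower). ATG39 measured 10.14 and 10.02 in starved msn5, against 9.05 and 8.83 in starved wild-type (1.14 ± 0.24, adjusted p = 0.00203). ATG18 measured 10.65 and 10.75 in starved msn5, against 10.20 and 10.17 in starved wild-type (0.51 ± 0.08, adjusted p = 0.000175), a call lost in a fit on the compared groups alone (adjusted p = 0.0511). ATG39 thus lay higher in msn5 in both conditions. The others, ATG31 (0.38 ± 0.14), ATG21 (0.33 ± 0.10) and VPS30 (0.27 ± 0.09), each lost the call under several settings, and without msn5 array 2 the count was 2. ATG1 (-0.43 ± 0.18), ATG8 (0.08 ± 0.17), PEP4 (0.16 ± 0.13) and PRB1 (0.33 ± 0.22) were not called in the comparison of starved cells, though ATG1 was without wild-type array 2 (-0.64, adjusted p = 0.0491).

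The mtr10 strain differed from wild-type in more of these genes. In fed cells 3 of the 40 were higher and 10 lower, where 39.5% of all genes were called (18.8% higher and 20.7% lower). In starved cells 4 were higher and 15 lower, where 54.2% of all genes were called (25.7% higher and 28.5% lower). In both comparisons the share of the 40 genes called was below that of all genes. The fed count rests on few arrays: it was 3 and 7 without wild-type arrays 1 and 2, and 5 and 8 without mtr10 arrays 1 and 2. On MAS5 signals 1 gene was higher and 4 lower in fed cells, and 2 were higher and 7 lower in starved cells.

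**Figure D3:**
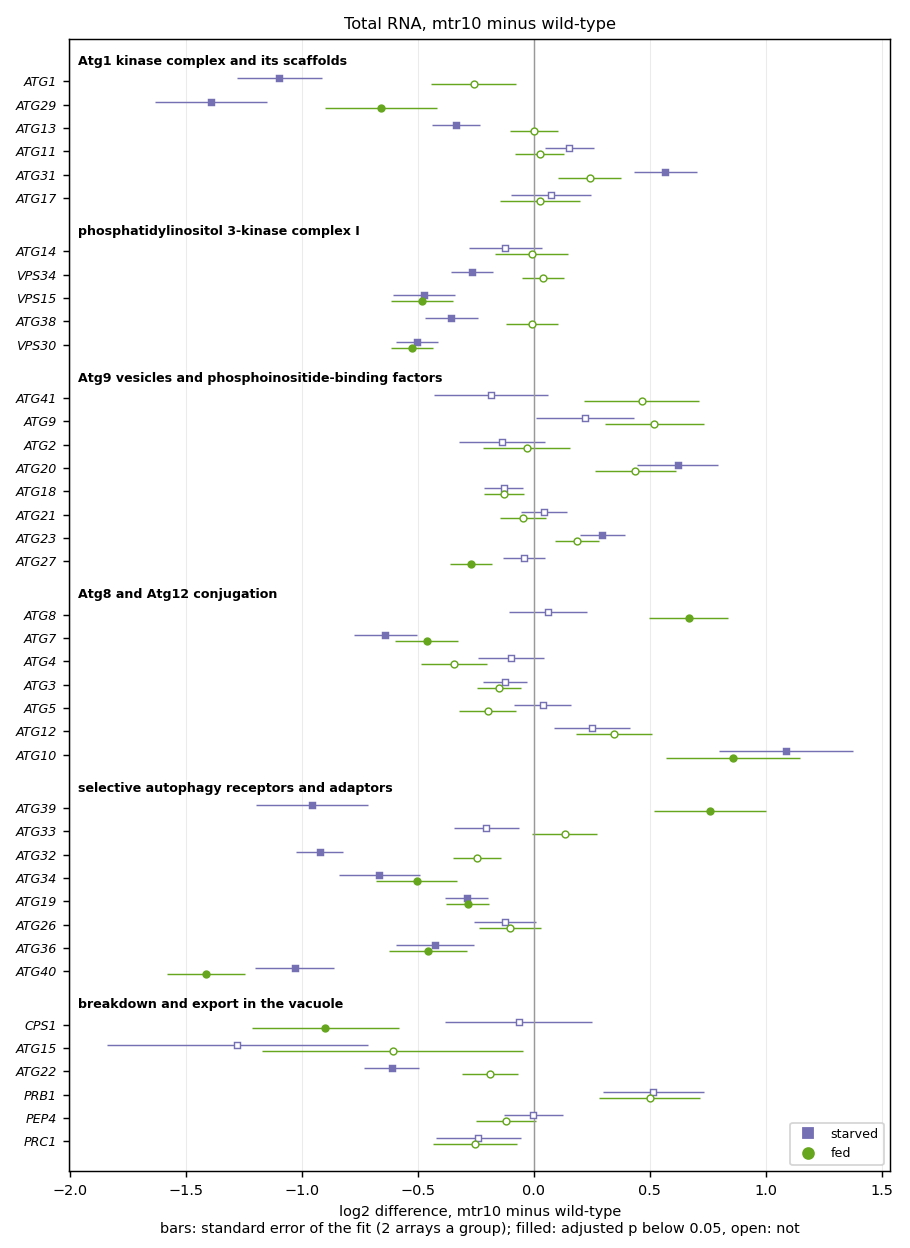
Differences in total RNA between mtr10 and wild-type for the 40 genes, in rows grouped by role, with the log2 difference on the horizontal axis. Points show starved and fed cells, upper and lower in each row, with the standard error of the fit, filled where called. ATG40 lies lowest in fed cells and ATG29 in starved cells, ATG10 lies to the right in both, and ATG39 lies to the right of 0 in fed and to the left in starved cells.

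Of the 8 genes grouped here as receptors and factors of selective autophagy, 6 were called lower and 0 higher in starved mtr10. Of all genes 28.5% were called lower and 25.7% higher there. In fed mtr10 4 of the 8 were lower and 1 higher, where 20.7% of all genes were lower and 18.8% higher. ATG40 measured 9.36 and 9.50 in starved mtr10, against 10.52 and 10.40 in starved wild-type (-1.03 ± 0.17, adjusted p = 2.91e-05). In fed cells it measured 8.67 and 8.87 in mtr10, against 10.23 and 10.13 in wild-type (-1.41 ± 0.17, adjusted p = 1.25e-06). These groups lay more than 1 log2 unit apart in fed cells, and MAS5 signals gave -1.36 in starved and -1.56 in fed cells. ATG32 was lower in starved mtr10 by 0.92 ± 0.10 (adjusted p = 1.81e-07) and not called in fed cells (-0.25 ± 0.10). ATG34 was lower by 0.67 ± 0.17 in starved and 0.51 ± 0.17 in fed cells, calls that MAS5 signals did not keep (adjusted p of 0.0609 and 0.0933). The fed call was also lost without either wild-type array or mtr10 array 1 (adjusted p of 0.0729 to 0.235).

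ATG39 was lower in starved mtr10 (-0.96 ± 0.24, adjusted p = 0.00218) and higher in fed mtr10 (0.76 ± 0.24, adjusted p = 0.0165). Both calls were lost on MAS5 signals, with -0.23 and 0.27, and the fed call also without wild-type array 1 or mtr10 array 2 (adjusted p of 0.19 and 0.158). ATG1 measured 10.87 and 10.34 in starved mtr10, against 11.91 and 11.49 in starved wild-type, which is -1.10 ± 0.18 (adjusted p = 3.59e-05). In fed cells it was not called (-0.26 ± 0.18). ATG29 was lower by 1.39 ± 0.24 in starved cells (6.80 and 6.96 in mtr10, against 8.50 and 8.04 in wild-type) and by 0.66 ± 0.24 in fed cells. MAS5 signals gave -0.56 and -0.50 for it, neither called, and the fed call was lost without any 1 of the 4 arrays.

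In the lipid kinase complex 4 of 5 genes were called lower in starved mtr10, where 28.5% of all genes were called lower. The differences were -0.36 for ATG38, -0.47 for VPS15, -0.50 for VPS30 and -0.27 for VPS34. VPS30 was also lower in fed cells by 0.52 ± 0.09 (9.62 and 9.77 in mtr10, against 10.29 and 10.15 in wild-type, adjusted p = 7.86e-05). ATG7 was lower by 0.64 ± 0.13 in starved mtr10 (9.98 and 9.82, against 10.57 and 10.51 in wild-type). ATG10 went the other way. It measured 9.75 and 9.87 in starved mtr10, against 8.61 and 8.84 in starved wild-type (1.09 ± 0.29, adjusted p = 0.00312), and 10.20 and 10.03 in fed mtr10, against 9.32 and 9.20 in fed wild-type (0.86 ± 0.29, adjusted p = 0.022). All mtr10 arrays lay above the wild-type ones, while the fed call was lost without any 1 of the 4 arrays and on MAS5 signals.

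ATG8 was higher in fed mtr10 by 0.67 ± 0.17 (10.45 and 10.71, against 9.81 and 10.01 in wild-type, adjusted p = 0.00351), a call lost without wild-type array 1 or mtr10 array 2 (adjusted p of 0.0519 and 0.0577). In starved cells it did not differ by a called amount (0.06 ± 0.17). CPS1 was lower in fed mtr10 by 0.90 ± 0.32 (adjusted p = 0.0284), a call lost without any 1 of the 4 arrays. PEP4 gave -0.00 ± 0.13 in starved and -0.12 ± 0.13 in fed cells, and PRB1 0.51 ± 0.22 (adjusted p = 0.0509) in starved and 0.50 ± 0.22 in fed cells, none of them called. Fitted on the compared groups alone, PRB1 was called higher in starved (adjusted p = 0.00861) and in fed mtr10 (adjusted p = 0.00635).

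The ribosome load of the messages was read as the level in polysome minus that in non-polysome RNA of the same strain and condition. In fed wild-type 11 of the 40 genes were higher on polysomes and 9 lower, where 51% of all genes were called (26.5% higher and 24.5% lower). In starved wild-type 13 were higher and 10 lower, where 63.1% were called (34.1% higher and 29% lower). The split depended on the values used: on MAS5 signals it was 9 higher and 12 lower in fed wild-type, against 11 and 9 on RMA values. The counts in the starved mutants were 17 higher and 11 lower in each, where 67.6% of all genes were called in msn5 (36% higher and 31.6% lower) and 68.4% in mtr10 (35.5% higher and 32.9% lower). On MAS5 signals the mtr10 split was 12 and 12.

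**Figure D4:**
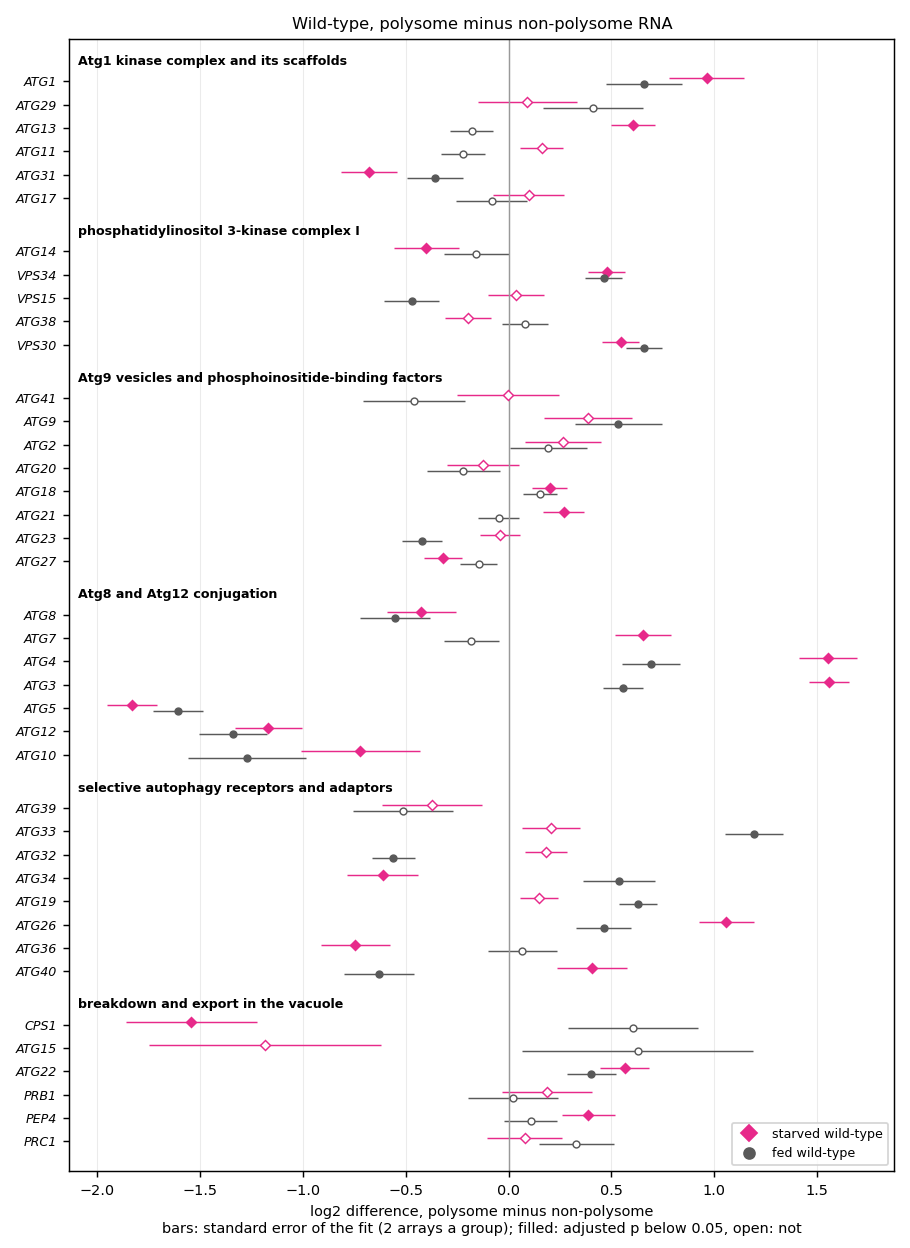
Differences between polysome and non-polysome RNA in wild-type for the 40 genes, in rows grouped by role, with the log2 difference on the horizontal axis. Points show starved and fed cells, upper and lower in each row, with the standard error of the fit, filled where called. ATG5, ATG12 and ATG10 lie to the left of 0 in both conditions, ATG3 and ATG4 lie to the right, and CPS1 lies to the left only in starved cells.

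ATG5 and ATG12 were lower on polysomes in each of the 4 comparisons of the pools. ATG5 measured 10.34 and 10.21 in polysome against 12.17 and 12.04 in non-polysome RNA of starved wild-type (-1.83 ± 0.12, adjusted p = 1.59e-10). In fed wild-type it measured 10.00 and 10.03 in polysome against 11.53 and 11.72 in non-polysome RNA (-1.61 ± 0.12, adjusted p = 1.36e-09). The pools did not overlap. ATG12 gave -1.17 ± 0.16 in starved and -1.34 ± 0.16 in fed wild-type, and ATG10 gave -1.27 ± 0.29 in fed wild-type. Its smaller value of -0.72 ± 0.29 in starved wild-type (adjusted p = 0.0338) was added after the values were seen. In the starved mutants all 3 genes were called lower on polysomes, and the pools were not compared in the fed mutants. ATG5 gave -1.89 ± 0.12 in msn5 and -1.87 ± 0.12 in mtr10. ATG12 gave -1.70 ± 0.16 in msn5 and -1.91 ± 0.16 in mtr10, and ATG10 gave -1.36 ± 0.29 in msn5 and -1.81 ± 0.29 in mtr10. Without msn5 non-polysome array 1 the ATG10 value in msn5 was -0.85, which kept its call.

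The genes for the protease and the conjugating enzyme of Atg8 were on the other side. ATG4 measured 9.31 and 9.08 in polysome against 7.76 and 7.53 in non-polysome RNA of starved wild-type (1.55 ± 0.14, adjusted p = 6.44e-09), and gave 0.69 ± 0.14 in fed wild-type. ATG3 measured 10.66 and 10.28 in polysome against 8.92 and 8.91 in non-polysome RNA of starved wild-type (1.56 ± 0.10, adjusted p = 5.03e-11). In starved msn5 the values were 1.63 ± 0.14 for ATG4 and 1.55 ± 0.10 for ATG3, and in starved mtr10 1.45 ± 0.14 and 1.41 ± 0.10. MAS5 signals gave smaller values for ATG4, with 0.92 in starved wild-type, 0.88 in starved mtr10 and 0.42 (adjusted p = 0.08) in fed wild-type.

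ATG33 was higher on polysomes in fed wild-type by 1.19 ± 0.14 and VPS30 by 0.66 ± 0.09, while ATG40 was lower by 0.63 ± 0.17, a call lost on MAS5 signals (-0.21) and without non-polysome array 1 (adjusted p = 0.053). ATG1 was higher by 0.66 ± 0.18 in fed wild-type, a call lost on MAS5 signals (0.10) and without polysome array 2 (adjusted p = 0.0567). It was higher by 0.96 ± 0.18 in starved wild-type, 1.14 ± 0.18 in starved msn5 and 1.30 ± 0.18 in starved mtr10. In starved wild-type ATG26 was higher by 1.06 ± 0.13 and ATG36 lower by 0.75 ± 0.17. ATG29 was higher in starved msn5 by 0.93 ± 0.24, and 0.47 (adjusted p = 0.102) without polysome array 2. ATG40 was higher in starved mtr10 by 1.12 ± 0.17 and in starved msn5 by 0.90 ± 0.17.

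ATG8 was lower on polysomes by 0.42 ± 0.17 in starved and 0.55 ± 0.17 in fed wild-type and by 0.53 ± 0.17 in starved msn5. Each of these calls was lost without 1 or more single arrays (adjusted p of 0.0503 to 0.214), and ATG8 was not called in starved mtr10 (-0.18 ± 0.17). PEP4 was higher by 0.39 ± 0.13 in starved wild-type, 0.49 ± 0.13 in starved msn5 and 0.59 ± 0.13 in starved mtr10 on RMA values, but MAS5 signals gave -0.07, -0.21 and 0.04. The call in starved wild-type was also lost without polysome array 1 or non-polysome array 1, and that in starved msn5 without non-polysome array 1 (adjusted p of 0.0597 to 0.0759). In fed wild-type PEP4 was not called on RMA values (0.11 ± 0.13), while MAS5 signals gave 0.34, which was called. PRB1 was called only in starved msn5 among these comparisons (0.60 ± 0.22, adjusted p = 0.0199), and gave 0.28 (adjusted p = 0.331) there without polysome array 2.

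The change of this ratio on starvation was tested as the starved difference minus the fed difference. RMA gives every array the same distribution of values, so a shift is relative to the other messages of each pool. A change common to all messages would not show. In wild-type 10 of the 40 genes shifted towards polysomes and 5 away. That is 37.5% called, against 39.7% of all genes (23.3% higher and 16.4% lower). On MAS5 signals the counts were 7 and 6. CPS1 had the largest change of the called genes. Its polysome level was 9.65 and 9.59 in starved and 9.43 and 10.07 in fed wild-type, while its non-polysome level was 10.95 and 11.36 in starved and 9.10 and 9.19 in fed wild-type. The polysome arrays of the 2 conditions overlapped, the non-polysome arrays lay far apart, and the shift was -2.15 ± 0.45 (adjusted p = 0.000931).

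**Figure D5:**
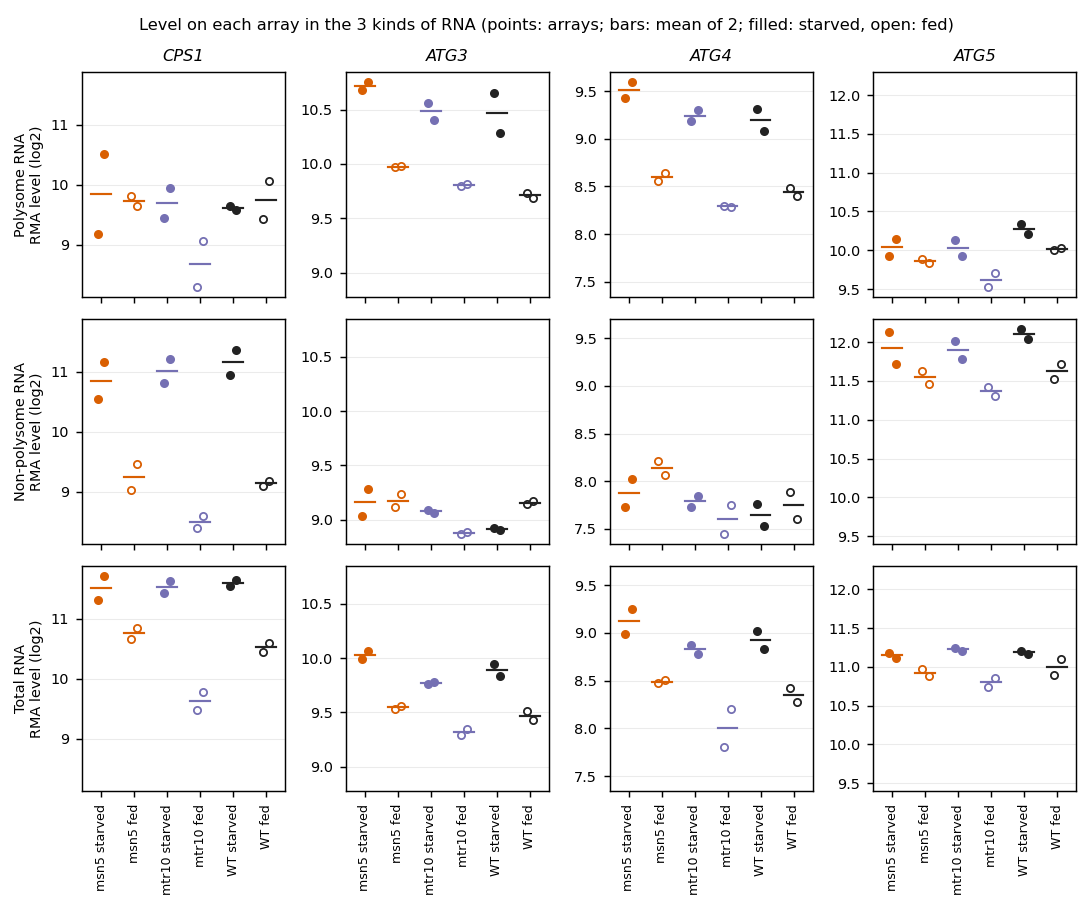
RMA levels (log2) of CPS1, ATG3, ATG4 and ATG5 on each array, in rows for polysome, non-polysome and total RNA, with msn5, mtr10 and wild-type from left to right and starved before fed in each. Points are arrays, filled for starved and open for fed, and bars are means of 2 arrays. Non-polysome CPS1 is high on all starved arrays of the 3 strains, polysome ATG3 and ATG4 are higher on starved than on fed arrays, and ATG5 lies higher in non-polysome than in polysome RNA in every group.

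ATG3 shifted towards polysomes by 1.00 ± 0.13, ATG40 by 1.04 ± 0.24, ATG4 by 0.86 ± 0.20 and ATG7 by 0.83 ± 0.19 in wild-type. ATG4 and ATG40 missed the threshold on MAS5 signals (adjusted p of 0.156 and 0.0523). Away from polysomes moved the receptor genes ATG34 (-1.15 ± 0.25) and ATG36 (-0.81 ± 0.24), and ATG33 (-0.99 ± 0.20). For ATG34 the non-polysome level was 11.27 and 11.06 in starved and 9.48 and 9.36 in fed wild-type, and the polysome level 10.60 and 10.51 in starved and 10.00 and 9.92 in fed wild-type. It was therefore higher in both pools of starved cells, and more so off polysomes. MAS5 signals gave -0.68 for ATG34, still called, and -0.50 for ATG36, not called (adjusted p = 0.0776). ATG1 (0.30 ± 0.26), ATG8 (0.13 ± 0.24), PEP4 (0.28 ± 0.18) and PRB1 (0.16 ± 0.31) did not shift by a called amount.

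The shifts in the mutants rest on the fed non-polysome arrays that stand apart. In msn5 11 genes shifted towards polysomes and 6 away, where 43.8% of all genes were called (25.2% higher and 18.6% lower), and without fed non-polysome array 2 the count called was 11. In mtr10 11 shifted towards polysomes and 2 away, where 32.4% of all genes were called (17.4% higher and 15% lower), and the count called was 6 without fed non-polysome array 2 and 8 without starved non-polysome array 1. CPS1 moved away from polysomes in both, by -1.49 ± 0.45 in msn5 and -1.50 ± 0.45 in mtr10. The msn5 call was lost without starved polysome array 1 (-0.83, adjusted p = 0.0979) or starved non-polysome array 2, and the mtr10 call on MAS5 signals and without fed polysome array 2 or starved polysome array 1 or starved non-polysome array 2 (adjusted p of 0.0541 to 0.0949).

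ATG4 moved towards polysomes by 1.17 ± 0.20 in msn5 and 0.76 ± 0.20 in mtr10, the mtr10 call being lost on MAS5 signals (adjusted p = 0.082) and without fed non-polysome array 2 (adjusted p = 0.0508). ATG1 moved by 1.06 ± 0.26 in msn5 and 1.01 ± 0.26 in mtr10, and ATG40 by 0.92 ± 0.24 and 1.32 ± 0.24. ATG13 (0.98 ± 0.15), ATG32 (0.86 ± 0.14) and ATG3 (0.75 ± 0.13) moved towards polysomes in msn5 and VPS15 (1.08 ± 0.19) in mtr10. ATG41 was called in msn5 (0.94 ± 0.35, adjusted p = 0.034) and ATG26 (0.59 ± 0.19) and ATG38 (-0.56 ± 0.16) in mtr10. Each of these 3 calls was lost on MAS5 signals and without 2 or more of the single arrays. ATG8 (-0.11 ± 0.24 in msn5 and -0.29 ± 0.24 in mtr10) and PRB1 (0.26 ± 0.31 and -0.35 ± 0.31) were not called, while PEP4 was called in mtr10 (0.58 ± 0.18, adjusted p = 0.0203) with -0.07 on MAS5 signals, and not in msn5 (0.44 ± 0.18). The mtr10 call was lost without fed polysome array 1, fed non-polysome array 2, starved polysome array 2 or starved non-polysome array 2 (adjusted p of 0.0585 to 0.124), and the msn5 value was called without fed non-polysome array 1 or starved non-polysome array 2 (adjusted p of 0.0364 and 0.0115).

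With total RNA in place of non-polysome RNA, limma called 0 of the 40 genes in each strain, where it called 0.862% of all genes in wild-type, 0.0749% in msn5 and 0.0937% in mtr10. At an unadjusted p below 0.05 there were 1 in msn5, 5 in mtr10 and 7 in wild-type. The shift of CPS1 was -0.63 in msn5 (adjusted p = 0.64), -0.88 in mtr10 (adjusted p = 0.515) and -1.20 in wild-type (adjusted p = 0.203), with the sign it had before. The shifts of ATG3 and ATG4 were 0.34 and 0.18 in wild-type, and neither was called. In msn5 ATG1 rose on starvation by 2.65 in polysome and 2.46 in total RNA, and ATG13 by 1.16 and 0.98. ATG32 rose there by 1.28 and 1.11, ATG41 by 2.65 and 2.57, and ATG40 by 0.80 and 0.37. In mtr10 ATG1 rose by 2.25 and 1.99, ATG4 by 0.95 and 0.82, ATG40 by 1.25 and 0.66 and VPS15 by 1.09 and 0.64. The ATG1 shifts of the mutants were thus much smaller against total RNA.

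Within polysome RNA alone, most of the genes were again called higher on starvation. In msn5 31 of the 40 genes were higher and 1 lower, where 66.8% of all genes were called (34.2% higher and 32.6% lower). In mtr10 30 were higher and 2 lower, where 59.8% were called (32.7% higher and 27.2% lower), and in wild-type 31 were higher and 2 lower, where 69.3% were called (36.1% higher and 33.2% lower). ATG1 rose by 2.65 ± 0.18 in msn5, 2.25 ± 0.18 in mtr10 and 2.90 ± 0.18 in wild-type polysome RNA. ATG41 rose by 2.65 ± 0.25, 2.35 ± 0.25 and 2.67 ± 0.25 in the same order of strains, with smaller MAS5 values of 1.56 in mtr10 and 1.77 in wild-type. ATG39 rose by 1.54 ± 0.24 in msn5, 1.18 ± 0.24 in mtr10 and 2.31 ± 0.24 in wild-type, the mtr10 value being 0.74 without fed polysome array 1. ATG14 rose by 1.40 ± 0.16, 1.28 ± 0.16 and 1.66 ± 0.16, and ATG13 by 1.16 ± 0.10, 1.09 ± 0.10 and 1.16 ± 0.10.

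ATG7 rose by 1.05 ± 0.13 in msn5, 1.02 ± 0.13 in mtr10 and 1.22 ± 0.13 in wild-type polysome RNA. ATG32 rose by 1.28 ± 0.10, 0.52 ± 0.10 and 1.16 ± 0.10 in the same order. ATG29 rose by 1.22 ± 0.24 in msn5, with 0.76 without starved array 2. It rose by 0.92 ± 0.24 in mtr10 and 1.04 ± 0.24 in wild-type. ATG40 rose by 0.80 ± 0.17 in msn5, 1.25 ± 0.17 in mtr10 and 0.94 ± 0.17 in wild-type. VPS15 rose by 0.78 ± 0.13, 1.09 ± 0.13 and 0.84 ± 0.13 in the same order. ATG8 rose by 0.48 ± 0.17 in msn5, 0.67 ± 0.17 in mtr10 and 1.03 ± 0.17 in wild-type. Its msn5 call was lost without fed array 2 (adjusted p = 0.0832) or starved array 2 (0.158).

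ATG15 was the gene called lower in polysome RNA that was not called in total RNA. It measured 6.11 and 6.46 in starved and 7.08 and 8.45 in fed mtr10 polysome RNA (-1.48 ± 0.56, adjusted p = 0.0277), and 7.59 and 6.35 in starved and 8.24 and 9.02 in fed wild-type polysome RNA (-1.66 ± 0.56, adjusted p = 0.0122). The starved arrays lay below the fed ones in both strains, but the spread was wide. Both calls were lost on MAS5 signals and without single arrays. In msn5 its 2 starved polysome arrays measured 6.53 and 9.40 and spanned the fed ones at 8.47 and 8.03.

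PEP4 was called higher in polysome RNA of msn5 (0.32 ± 0.13), mtr10 (0.63 ± 0.13) and wild-type (0.47 ± 0.13) on RMA values, but MAS5 signals gave -0.41, -0.01 and -0.34. The msn5 and wild-type values were called lower there (adjusted p of 0.0125 and 0.0311), so the direction for this gene differed between the deposited values. On RMA values the msn5 call was lost without any 1 of its 4 arrays (adjusted p of 0.0574 to 0.151). PRB1 gave 0.51 ± 0.22 in msn5, 0.36 ± 0.22 in mtr10 and 0.33 ± 0.22 in wild-type polysome RNA, of which the first was called (adjusted p = 0.045) and turned to -0.13 on MAS5 signals.

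In wild-type non-polysome RNA 27 of the 40 genes rose on starvation and 3 fell, where 67% of all genes were called (31.1% higher and 36% lower). ATG1 (2.59 ± 0.18), ATG41 (2.21 ± 0.25) and ATG39 (2.17 ± 0.24) led again, followed by CPS1 (2.01 ± 0.32), ATG33 (1.95 ± 0.14), ATG14 (1.90 ± 0.16), ATG34 (1.74 ± 0.17) and ATG29 (1.36 ± 0.24). ATG8 rose by 0.90 ± 0.17, and PEP4 (0.19 ± 0.13) and PRB1 (0.17 ± 0.22) were not called.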

How the data were processed

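The authors deposited log2 expression values made by RMA with the affy package, per the submitters' processing notes, for 36 Affymetrix arrays. The authors also deposited a matrix of MAS5 signals (intensity, linear scale) with a detection p-value per probe set, per the file headers. The sources used here give no version of these tools and no annotation build. Of 5684 probe sets in the log2 table, 5379 have 1 gene; 12 symbols were updated through RefSeq, and the brightest probe set was kept for 39 genes with several, leaving 5338 genes.

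A model with a mean for each of 18 groups was fitted by lmFit, contrasts.fit and eBayes of limma 3.58.1 (R 4.3.3; two-sided; 18 residual and 3.92 prior degrees of freedom). Each of 20 comparisons was adjusted by Benjamini and Hochberg over all genes and called below 0.05. The code of the fit was checked on simulated data with independent noise and few changed genes. That setting differs from these arrays, so it does not show how well the calls are calibrated here. Named genes are all 40 in the wild-type total RNA response, ATG8, ATG1, PEP4 and PRB1 in every comparison, up to 8 called genes with the largest change whose arrays agree in direction in the others, and up to 3 with the smallest p of each other list. The genes, lists and comparisons were chosen with earlier results of these data known.

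Alternatives were MAS5 signals (floor of 1, log2, centred on each array's median over the tested genes), only the compared groups, a block for strain and replicate number, genes Present on all 36 arrays at a detection p-value below 0.05 (5276 genes), polysome over total RNA, and leaving out each array. The MAS5 columns named for the first array of starved and of fed wild-type total RNA matched arrays of the other condition and were left out. Figures were drawn with matplotlib 3.10.9.

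Whether equal replicate numbers pair arrays was checked by the correlation of their deviations from the group means. It was over 0.1 in 9 of 15 pairs of groups in msn5, 8 of 15 in mtr10 and 13 of 15 in wild-type. In msn5 every pair with fed polysome RNA was negative (-0.66 to -0.23), and every other pair was positive (0.05 to 0.57). The numbers thus do not pair the arrays throughout, but deviations shared between groups were present. The main fit took no account of them, and the block used the numbers as given. No genome sequence was used here.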

Additional observations from a re-analysis of the deposited data

Results flagged for a closer look

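For 3 genes the starvation response of total RNA differed between mtr10 and wild-type when the difference itself was tested in limma, each with a smaller rise in mtr10, where 14.3% of all genes were called. All 3 calls were lost on MAS5 signals, and that of ATG1 also in 5 of 8 fits that left out 1 array. The difference of responses was -0.84 for ATG1, which rose by 1.99 in mtr10 and 2.83 in wild-type. It was -0.68 for ATG32, which rose by 0.27 in mtr10 and 0.95 in wild-type. It was -1.72 for ATG39, which gave 0.49 (not called) in mtr10 and 2.21 in wild-type, and in polysome RNA 1.18 (called) and 2.31. The number of comparisons of this kind was 2, and none of the 40 genes was called in the one for msn5 (limma, 1 at an unadjusted p below 0.05). The MATa markers BAR1, MFA1 and STE2 and the other 4 of their list moved in the same comparison, and their part was not tested.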

How the results depend on the processing

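With MAS5 signals the number of the 40 genes called was 5 for fed mtr10 against wild-type, 2 for starved msn5, 9 for starved mtr10 and 0 for the mtr10 difference of responses. Fitted on the compared groups alone, it was 14 for fed msn5, 2 for starved msn5, 5 for the mtr10 difference of responses, 13 for starved msn5 polysome against non-polysome and 6 for the msn5 shift. With the replicate block it was 9 for starved msn5, and the block moved no other count by over 1.5 times. With polysome over total RNA it was 0 for the msn5 shift, 0 for the mtr10 shift and 0 for the wild-type shift. Leaving out 1 array gave 3 to 6 for fed msn5, 3 to 8 for fed mtr10, 2 to 5 for starved msn5, 2 to 5 for the mtr10 difference of responses, 11 to 19 for the msn5 shift and 6 to 15 for the mtr10 shift. The filter for Present calls moved no count beyond 1.5 times. Among values called on either set, directions turned with MAS5 signals alone: PEP4 gave -0.26 in wild-type total RNA, -0.34 in wild-type, -0.41 in msn5 and -0.00931 in mtr10 polysome RNA, -0.0658 and -0.21 for polysome against non-polysome in starved wild-type and msn5, and -0.0653 for the mtr10 shift, and PRB1 gave -0.13 in msn5 polysome RNA. Some values that were not called changed sign under MAS5 signals, polysome over total RNA and the loss of single arrays. Of the named values, 12 gained and 17 lost a call when fitted on the compared groups alone, and 4 gained one with the replicate block, among them PRB1 in starved mtr10 against wild-type (adjusted p = 0.0376). The cause of these changes was not tested. Of 234 values of named genes, 185 were called, and 140 of those kept the call whichever single array was left out. Outside the wild-type total RNA response most named genes were chosen because they were called with a large change. The counts of named values therefore do not measure how often calls among all 40 genes hold. Precision is limited by 2 arrays a group, and for the MAS5 fit by 1 array in each wild-type total RNA group.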
